A study of Homo sapiens with 6 samples.

Results

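The 10 genes described here start a new centriole: PLK4, STIL, SASS6, CEP152, CEP192, CEP63, CEP57, CEP135, CEP85 and RTTN. They were chosen by name for their roles, as PLK4, the proteins that bring it to the centriole, STIL and the parts of the cartwheel, and each name matched 1 of the 58735 genes in the count table. All 10 passed the filter on low counts and were among the 16591 genes tested. The cells were RPE-1, a human retinal pigment epithelial cell line, in which Cetn2 was tagged with GFP to mark centrioles and PLK4 stood under an rtTA doxycycline-inducible promoter. One group of 3 libraries (siControl) came from cells given a scramble siRNA. The other group of 3 (siSON) came from cells given an siRNA against SON, a splicing factor of nuclear speckles. Doxycycline at 1 µg/mL was given to both groups to induce PLK4, so that the groups differed in the siRNA alone, and no library without induction was analysed here. Whether the line is a single clone, and whether the replicates came from separate cultures, is not given in the sources used here. P-values therefore measure the spread between these libraries, which may be technical.

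A centriole is a short barrel of microtubules, and a cell normally builds a new one beside each old one once per cell cycle. The kinase PLK4 is recruited to the old centriole by the scaffold proteins CEP192 and CEP152, the latter held in a ring with CEP63 and CEP57. PLK4 then phosphorylates STIL, which brings in SASS6, and SASS6 forms the cartwheel on which the new barrel is laid down. PLK4 protein is known to be short-lived, and cells that make too much of it form extra centrioles.

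The siRNA target was checked first. In siControl SON stood at 295, 313 and 284 CPM (read counts relative to the scaled library size, in the order of replicates 1 to 3 here and below). In siSON it stood at 68.0, 70.0 and 65.0 CPM, without overlap. The siSON mean was 22.8% of the siControl mean, with a log2 fold change of -2.14 (SE 0.06, edgeR adjusted p 6.78e-10). Library totals ran from 54572365 to 69764836 counts. Among the retinal pigment epithelium markers, KRT8 (556 to 778 CPM), KRT18 (208 to 622 CPM), OTX2 and MITF were counted in every library, while RPE65 and RLBP1 stayed at or below 0.258 CPM and TYR had 0 counts. Of the other cell types' markers, EPCAM, CDH1, CDH5, VWF and CD14 stayed at or below 0.236 CPM, CD3E, KRT20 and RBFOX3 had 0 counts, PTPRC (0.275 to 1.98 CPM) and PECAM1 (0.256 to 1.29 CPM) were low but counted, and MAP2 (18.7 to 38.2 CPM) and TUBB3 (4.48 to 10.2 CPM) were counted throughout. The summed level of the 10 retinal pigment epithelium markers was 816 to 914 CPM in siControl and 1410 to 1470 CPM in siSON, and that of the 4 neuron markers 28.7 to 32.5 and 38.4 to 43.4 CPM. KRT8 and KRT18, keratins of many simple epithelia, made up most of the first sum, since each of the other 8 markers reached at most 37 CPM. The summed level was 1.20 to 2.02 CPM in siControl and 0.414 to 0.511 CPM in siSON for the 4 leukocyte markers, and 1.19 to 1.39 and 0.393 to 0.913 CPM for the 3 endothelial markers.

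After SON knockdown 7 of the 10 genes changed, 5 lower and 2 higher. CEP192, RTTN, PLK4, CEP152 and CEP57 fell, CEP85 and CEP63 rose, and STIL, SASS6 and CEP135 did not pass the test (edgeR quasi-likelihood test, adjusted p under 0.05 over all genes tested). Over all genes tested 71.7% were called in this comparison, 36.5% lower and 35.2% higher, so that a count of 7 in 10 lay close to the background. The median log2 fold change was -0.18 for the 10 genes and -0.03 for all genes tested. The groups did not overlap for the same 7 genes, beside 75.1% of all genes tested. The median over all genes tested was -0.22 when libraries were scaled by their size alone, and 0.04 under cyclic loess normalization. Taken gene by gene, the median shift from the main fit was -0.20 and 0.14. The members split into 2 higher and 5 lower after scaling by size, and into 3 higher and 4 lower after cyclic loess. Over all genes, 49.1% of calls were higher with the scaling used here and 37.7% with library size alone.

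**Figure D1:**
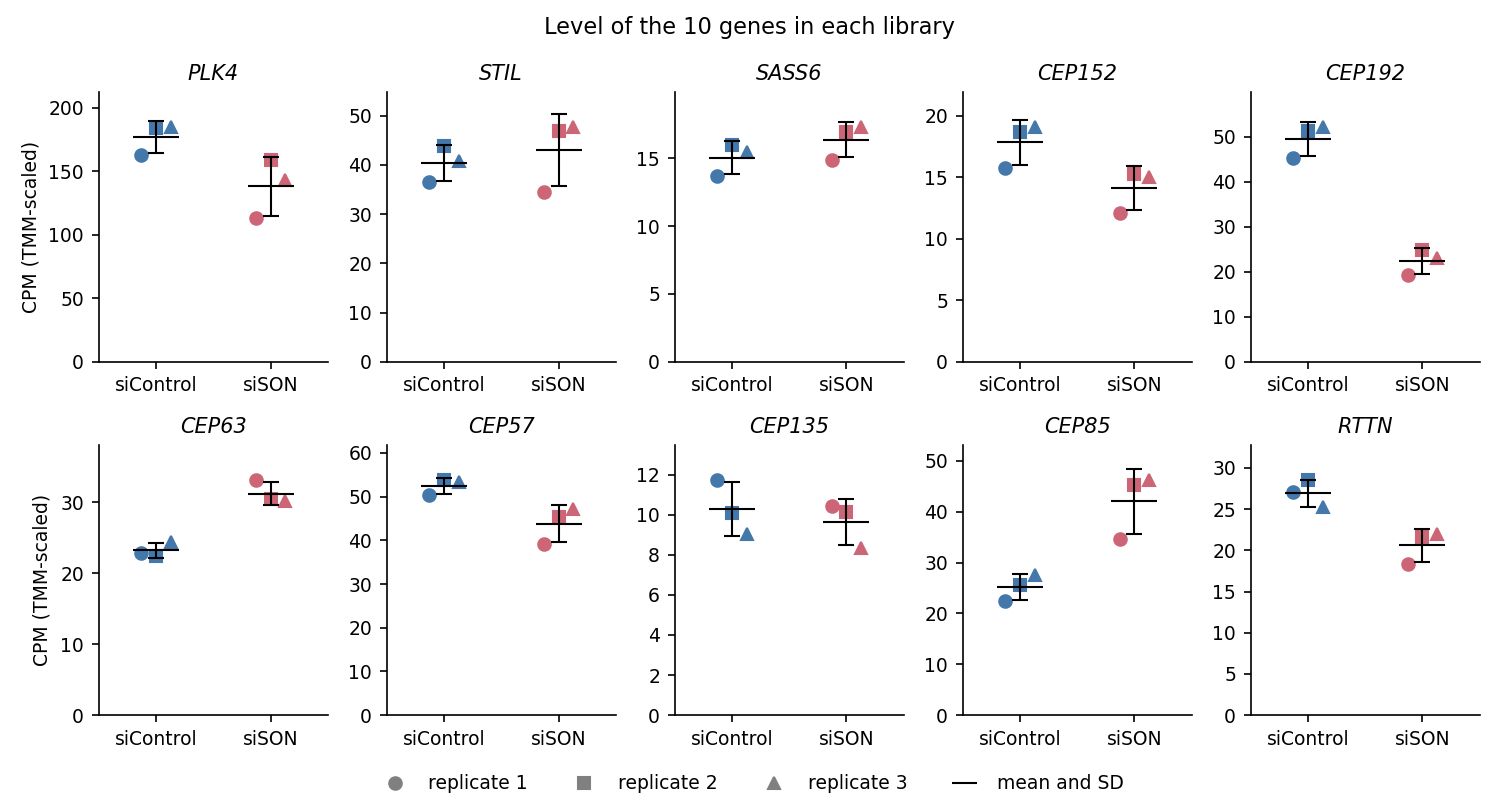
CPM of each of the 10 genes (vertical axis from 0, one panel per gene) in the 3 siControl and 3 siSON libraries, with the symbol giving the replicate and bars the mean and SD. CEP192 falls to 45.3% of its siControl mean and CEP85 reaches 167%, while the points of STIL, SASS6 and CEP135 overlap between groups.

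The start regions of 4 of these genes are shown to set the kinase and its activator beside the largest fall and the largest rise. Each line gives the 250 bases before the RefSeq start (GRCh38.p14), 5′ to 3′ on the gene's strand. Capitals mark matches to 3 motifs that are known from genes of the cell cycle: E2F (TTTCCCGC, TTTGGCGC, TTTCGCGC or TTTGCCGC), CHR (TTTGAA) and CCAAT, each searched on both strands, with no overlapping matches. A match on the opposite strand is printed as its reverse complement, such as ATTGG for CCAAT and TTCAAA for CHR. The PLK4 window belongs to the native gene, not to the inducible promoter.
PLK4 (chr4:127880643-127880892, plus strand): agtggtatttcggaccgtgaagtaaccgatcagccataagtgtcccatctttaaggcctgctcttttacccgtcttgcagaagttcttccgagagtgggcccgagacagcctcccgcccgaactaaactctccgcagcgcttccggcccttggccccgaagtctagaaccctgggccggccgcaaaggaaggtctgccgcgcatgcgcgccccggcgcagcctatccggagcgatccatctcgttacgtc
STIL (chr1:47314148-47314397, minus strand): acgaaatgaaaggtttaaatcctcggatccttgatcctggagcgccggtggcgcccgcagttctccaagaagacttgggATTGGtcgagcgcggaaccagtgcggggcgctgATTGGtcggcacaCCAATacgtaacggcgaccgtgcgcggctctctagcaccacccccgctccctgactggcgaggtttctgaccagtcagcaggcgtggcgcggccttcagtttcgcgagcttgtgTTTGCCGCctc
CEP192 (chr18:12991112-12991361, plus strand): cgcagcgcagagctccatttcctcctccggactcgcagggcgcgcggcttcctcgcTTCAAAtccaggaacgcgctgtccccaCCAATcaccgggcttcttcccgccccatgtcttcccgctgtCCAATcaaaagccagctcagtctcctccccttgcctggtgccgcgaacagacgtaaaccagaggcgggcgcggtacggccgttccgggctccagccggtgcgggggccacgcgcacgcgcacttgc
CEP85 (chr1:26233950-26234199, plus strand): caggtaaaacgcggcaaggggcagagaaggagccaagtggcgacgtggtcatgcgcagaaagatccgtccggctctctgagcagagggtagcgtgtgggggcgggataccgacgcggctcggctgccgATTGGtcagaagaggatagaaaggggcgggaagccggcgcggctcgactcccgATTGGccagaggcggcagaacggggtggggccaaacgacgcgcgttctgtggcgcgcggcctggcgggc

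The PLK4 window held no match to any of the 3 motifs, and the STIL window held 3 CCAAT boxes and 1 E2F match (TTTGCCGC). CEP192, with the largest fall, and CEP85, with the largest rise, each held 2 CCAAT boxes, and the CEP192 window also held 1 CHR match. All 10 genes had a window in the table. Over the 10 windows, CCAAT was found in 5 (STIL, CEP152, CEP192, CEP57 and CEP85), CHR in 3 (CEP152, CEP192 and CEP57) and E2F in 3 (STIL, CEP63 and CEP57). Of all 35116 windows of the same length, 32.0% held CCAAT, 13.3% held CHR and 2.79% held E2F. These windows hold several for some genes and were not limited to the genes tested, while 1 window was used for each of the 10 genes. That window was the one nearest to the annotated gene start. PLK4 had 3 windows to choose from, and CEP63, CEP57 and CEP85 had 2 each. The 2 sets are therefore not alike, and no difference between them was tested.

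PLK4 itself (ENSG00000142731) lies on the plus strand of chromosome 4 from 127880861 to 127899195, with 16 exons in its longest coding transcript (GRCh38, as for all positions here). It was counted at 163, 184 and 185 CPM in siControl, against 113, 159 and 143 CPM in siSON. Every siSON library lay below every siControl library, and siSON replicate 1 was the lowest. The siSON mean was 78.1% of the siControl mean, and the fall was 0.36 on the log2 scale (SE 0.11, 95% interval -0.60 to -0.11, edgeR adjusted p 0.0143). The fall passed the test in all 15 alternatives, but its size was -0.22 without siSON replicate 1, -0.55 with library size alone and -0.66 under cyclic loess normalization. Whether the inducible copy adds to the native gene, and which parts of the transcript it holds, is not given in the sources used here. Reads of the 2 therefore cannot be told apart in these counts. The small RNA gene RNU6-583P lies within the span.

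Both scaffolds that recruit PLK4 fell, CEP192 further than CEP152. CEP192 (ENSG00000101639, chromosome 18, 12991362 to 13125052, plus strand, 45 exons), which also recruits the kinases of mitotic centrosome maturation, had 45.3, 51.3 and 52.2 CPM in siControl and 19.4, 24.9 and 23.0 CPM in siSON. Its siSON libraries all lay at less than the lowest siControl value, at 45.3% of the siControl mean. This was the only one of the 10 genes to fall by at least 2-fold (log2 fold change -1.14, SE 0.10, 95% interval -1.36 to -0.93, edgeR adjusted p 1.03e-06), a change seen in 20.5% of all genes tested. CEP152 (ENSG00000103995, chromosome 15, 48712928 to 48811146, minus strand, 27 exons), which binds PLK4 in a ring around the proximal end of the old centriole, had 15.74, 18.70 and 19.06 CPM in siControl and 12.06, 15.30 and 14.99 CPM in siSON. The groups came close but did not overlap, and the log2 fold change was -0.34 (SE 0.11, 95% interval -0.59 to -0.09, edgeR adjusted p 0.0182). That call was lost under cyclic loess normalization (limma adjusted p 0.0846) and without siSON replicate 1, siControl replicate 2 or siControl replicate 3 (log2 fold changes of -0.22, -0.32 and -0.30 with edgeR adjusted p 0.0607, 0.0567 and 0.0677). With library size alone the fall was larger, at -0.54. CEP152 shares its span with AC084757.2 on its own strand and with AC012379.1, AC012379.2 and AC084757.1 on the other.

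CEP63 and CEP57, the ring partners of CEP152, changed in opposite directions. CEP63 (ENSG00000182923, plus strand of chromosome 3, 134485721 to 134575017, 14 exons) showed 22.9, 22.4 and 24.4 CPM in siControl. In siSON it showed 33.0, 30.4 and 30.1 CPM. All siSON values lay above all siControl values, a rise of 0.43 on the log2 scale (SE 0.07, 95% interval 0.27 to 0.59, edgeR adjusted p 0.000267). With library size alone the rise was 0.23 (adjusted p 0.0139). CEP57 (ENSG00000166037, chromosome 11, 95789965 to 95832693, plus strand, 11 exons) also binds pericentrin. It had 50.3, 53.7 and 53.2 CPM in siControl and 39.1, 45.3 and 47.1 CPM in siSON. Its fall was 0.26 on the log2 scale (SE 0.08, 95% interval -0.43 to -0.09, edgeR adjusted p 0.00969), the smallest among the 7 genes called. Without siSON replicate 1 it was -0.17 (adjusted p 0.0290), with library size alone -0.46 and under cyclic loess -0.39. On the other strand CEP63 overlaps ANAPC13 and AC026117.1, and CEP57 overlaps FAM76B.

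None of the 3 genes of the cartwheel and its loading passed the test. STIL (ENSG00000123473, chromosome 1, 47250139 to 47314147, minus strand, 18 exons) had 36.6, 43.9 and 40.7 CPM in siControl and 34.5, 46.9 and 47.6 CPM in siSON. The groups overlapped, because siSON replicate 1 was the lowest of the 6 libraries and the other siSON libraries were the highest. The log2 fold change was 0.09 (SE 0.12, 95% interval -0.17 to 0.35, edgeR adjusted p 0.512). With library size alone the value was -0.11, with cyclic loess -0.02 and without siControl replicate 1 it was -0.0012. Without siSON replicate 1 it was 0.24 and passed the test (adjusted p 0.0144).

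SASS6 (ENSG00000156876, chromosome 1, 100083563 to 100132955, minus strand, 17 exons), whose protein forms the spokes of the cartwheel, had 13.69, 15.996 and 15.44 CPM in siControl and 14.87, 16.89 and 17.27 CPM in siSON, and the groups overlapped. Its log2 fold change was 0.12 (SE 0.09, 95% interval -0.09 to 0.33, edgeR adjusted p 0.274), and scaling by library size turned it to -0.08. Cyclic loess gave 0.23 which passed the test (limma adjusted p 0.0419). SASS6 overlaps AC093019.2 on its own strand and AC093019.1 on the other. CEP135 (ENSG00000174799, chromosome 4, 55948871 to 56033363, plus strand, 26 exons), which ties the cartwheel to the microtubule wall, had 11.7, 10.1 and 9.02 CPM in siControl and 10.5, 10.1 and 8.32 CPM in siSON. It was the least counted of the 10 genes, at 423 to 817 counts per library, and its log2 fold change of -0.09 had a 95% interval of -0.37 to 0.18 (edgeR adjusted p 0.528). The sign turned under cyclic loess (0.12) and without siSON replicate 3 (0.01). With the scaling used here, the intervals of STIL and SASS6 leave room for rises of up to 0.35 and 0.33 on the log2 scale. Their lower ends, -0.17 and -0.09, do not reach the point estimates of the falls of PLK4 (-0.36) or CEP57 (-0.26). The interval of CEP135, down to -0.37, holds both of these falls. The interval of STIL still overlaps those of PLK4 (-0.60 to -0.11) and CEP57 (-0.43 to -0.09). Apart from the ratios given below, differences between genes were not tested.

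CEP85 and RTTN, 2 further proteins of the set that bind STIL, changed in opposite directions. CEP85 (ENSG00000130695, chromosome 1, 26234200 to 26278808, plus strand, 14 exons) binds STIL and helps it to activate PLK4. CEP85 had 22.4, 25.6 and 27.5 CPM in siControl and 34.7, 45.4 and 46.2 CPM in siSON. No siSON library reached down to the siControl range, and the siSON mean was 167% of the siControl mean. This was the largest rise among the 10 genes (log2 fold change 0.74, SE 0.11, 95% interval 0.49 to 0.99, edgeR adjusted p 0.000144), and it passed the test in all 15 alternatives, between 0.54 and 0.87. CEP85 overlaps AL355877.2 on the other strand. RTTN (ENSG00000176225, chromosome 18, 70003031 to 70205945, minus strand, 49 exons), a large protein that binds STIL and is needed to build full-length centrioles, had 27.02, 28.47 and 25.26 CPM in siControl and 18.32, 21.56 and 21.97 CPM in siSON. It fell to 76.6% of the siControl mean (log2 fold change -0.38, SE 0.09, 95% interval -0.58 to -0.19, edgeR adjusted p 0.00223), with no overlap of the groups. With library size alone the fall was 0.58 on the log2 scale.

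**Figure D2:**
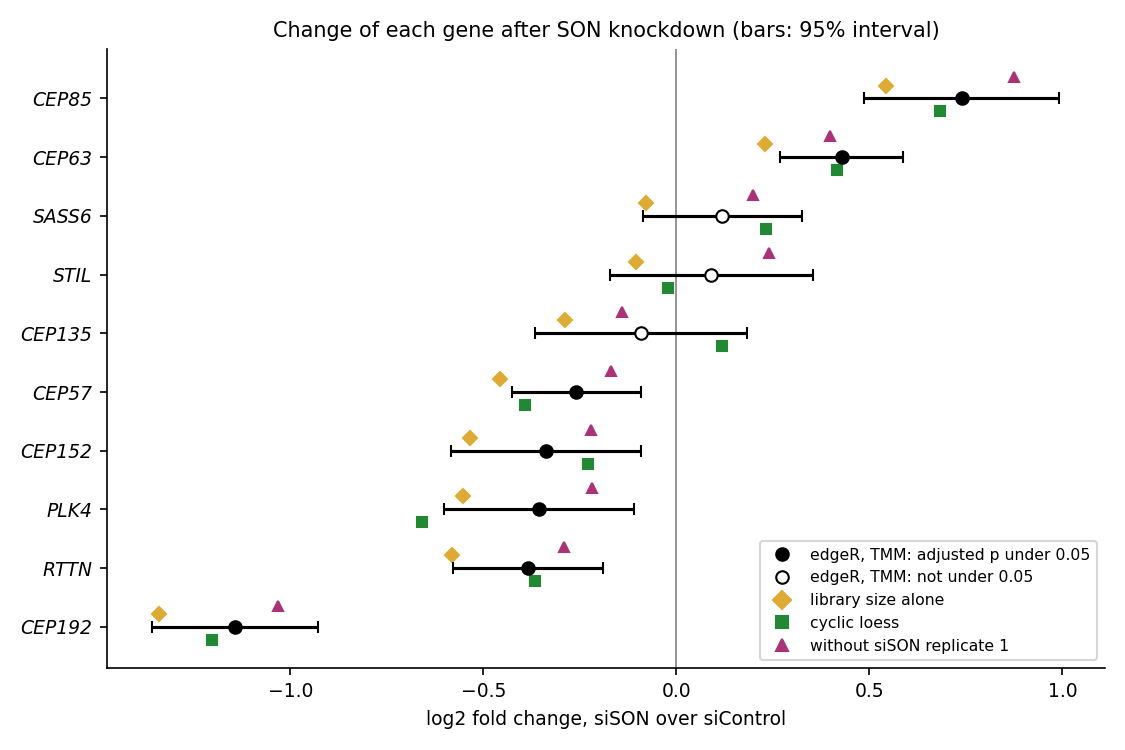
Log2 fold change of each gene, siSON over siControl (horizontal axis), from the edgeR fit with its 95% interval, filled where the adjusted p was under 0.05, beside 3 other settings as coloured symbols. CEP192 (-1.14) and CEP85 (0.74) stand at the ends, and for STIL, SASS6 and CEP135 the settings fall on both sides of 0.

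The 2-sided exact permutation test of log2 CPM, whose smallest possible p with 3 libraries against 3 is 0.1, gave that value for SON and for each of the 7 genes called. The same exact permutation test gave p = 0.6 for STIL, 0.3 for SASS6 and 0.7 for CEP135.

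**Figure D3:**
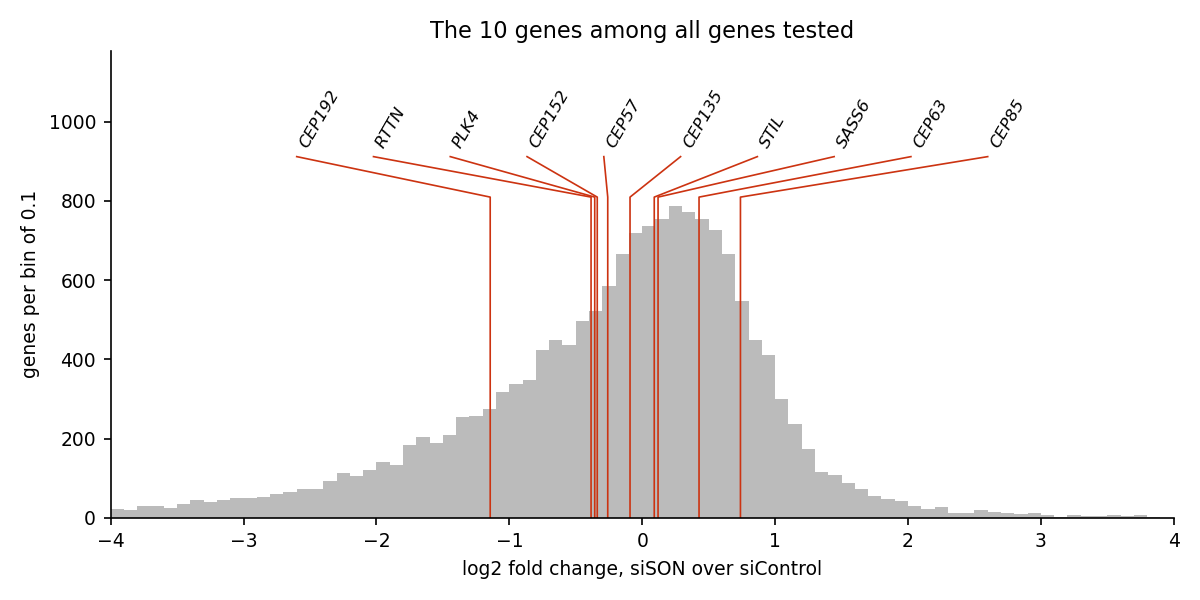
Histogram of the log2 fold change (siSON over siControl) of the genes tested, in bins of 0.1 and cut at 4 on either side, with a line for each of the 10 genes. CEP192 at -1.14 lies in the left shoulder, and the other 9 genes lie between -0.38 and 0.74.

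Levels of different genes were compared per kilobase of exon, with the union of all annotated exons as the length. PLK4, which is induced, had 39.5 ± 2.76 CPM per kilobase (SD, n = 3) in siControl and 30.9 ± 5.19 in siSON, far above the others in both groups. In siControl CEP57 (7.38 ± 0.256) and STIL (5.54 ± 0.503) came next, then CEP192 (5.01 ± 0.380), CEP85 (4.89 ± 0.495), SASS6 (3.79 ± 0.304), CEP63 (2.23 ± 0.102), CEP152 (2.18 ± 0.223), RTTN (1.39 ± 0.0833) and CEP135 (1.19 ± 0.157), all in CPM per kilobase. Neighbours in this order overlapped for STIL and CEP192, CEP192 and CEP85, CEP63 and CEP152, and RTTN and CEP135. In siSON, with this length, CEP85 stood second at 8.18 ± 1.24 CPM per kilobase and CEP192 seventh at 2.27 ± 0.286, against the fifth and the fourth place in siControl. CEP57 (6.17 ± 0.588) and STIL (5.90 ± 1.01) followed CEP85 and overlapped each other, as did CEP135 and RTTN at the low end (1.12 ± 0.133 and 1.07 ± 0.104 CPM per kilobase). With the longest annotated transcript as the length, PLK4 and CEP57 still led in siControl (46.1 and 16.5 CPM per kilobase), and CEP135 was still last. In siSON CEP85 then stood at rank 3 (10.7 CPM per kilobase), below CEP57 (13.8 CPM per kilobase) without overlap.

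Ratios within a library do not depend on scaling by a single factor per library. They were not computed under cyclic loess, which does not use a single factor per library. STIL over PLK4, as a difference of log2 CPM, was -2.13 ± 0.06 (SD, n = 3) in siControl and -1.69 ± 0.09 in siSON, a shift of 0.45. SASS6 over PLK4 shifted by 0.49, from -3.56 ± 0.03 to -3.07 ± 0.15. The induced kinase thus had less mRNA relative to its activator and to the cartwheel protein in every siSON library than in any siControl library. CEP152 over CEP192 shifted by 0.81, from -1.48 ± 0.04 to -0.67 ± 0.04, so that the 2 scaffolds moved closer together. Each of the 3 shifts gave a 2-sided exact permutation p of 0.1, the smallest possible here, and 0.1 after adjustment over the 3.

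The libraries numbered 1 were low for most of these genes. Among the siSON libraries, replicate 1 was the lowest for 8 of the 10 genes (all but CEP63 and CEP135) and for 37.9% of all genes tested. Among the siControl libraries, replicate 1 was the lowest for 7 of the 10 genes and for 37.8% of all genes tested. A list of 13 proliferation markers moved with it. Replicate 1 was the lowest siSON library for 12 of these and the lowest siControl library for 11, and the markers' summed level was 1581, 2009 and 2129 CPM in siSON replicates 1 to 3 and 2145, 2337 and 2378 CPM in siControl replicates 1 to 3. In that list 10 of 13 genes changed after SON knockdown, 3 higher and 7 lower, beside 71.7% called over all genes tested. The list's median was -0.28 on the log2 scale. With library size alone 1 was higher and 8 were lower (median -0.48), and under cyclic loess 1 was higher and 9 were lower (median -0.61). CCNE2 (cyclin E2, -4.49), E2F1 (a transcription factor of S-phase entry, -2.22) and PCNA (the replication clamp, -0.55) fell on the log2 scale, with edgeR adjusted p-values of 1.86e-08, 6.70e-07 and 4.82e-06. BUB1 (a spindle checkpoint kinase) rose by 0.74, AURKA (a mitotic kinase) by 0.32 and CCNB1 (cyclin B1) by 0.18 (edgeR adjusted p 0.000113, 0.0267 and 0.0448), with BUB1 at 0.45 and PCNA at -0.90 under cyclic loess. The AURKA call was lost with library size alone (0.12, adjusted p 0.362), under cyclic loess (0.11), with a mean count of at least 50 (0.26), and without siControl replicate 1 or 3 or siSON replicate 2 or 3 (0.23, 0.33, 0.29 and 0.24). CCNB1 turned to -0.02 with library size alone and to -0.04 under cyclic loess. Its call was also lost with DESeq2 (adjusted p 0.0547), with a mean count of at least 50 (0.12), and when any library but siSON replicate 1 was left out (0.12 to 0.20). Without the libraries numbered 1 of both groups, an alternative chosen after the data were seen, the same number of the 10 genes was called, 2 higher and 5 lower, and PLK4 was at -0.31 (edgeR adjusted p 4.87e-05). Fewer dividing cells and less of these mRNAs per cell cannot be told apart in bulk libraries, and the part of proliferation in the changes was not tested.

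**Figure D4:**
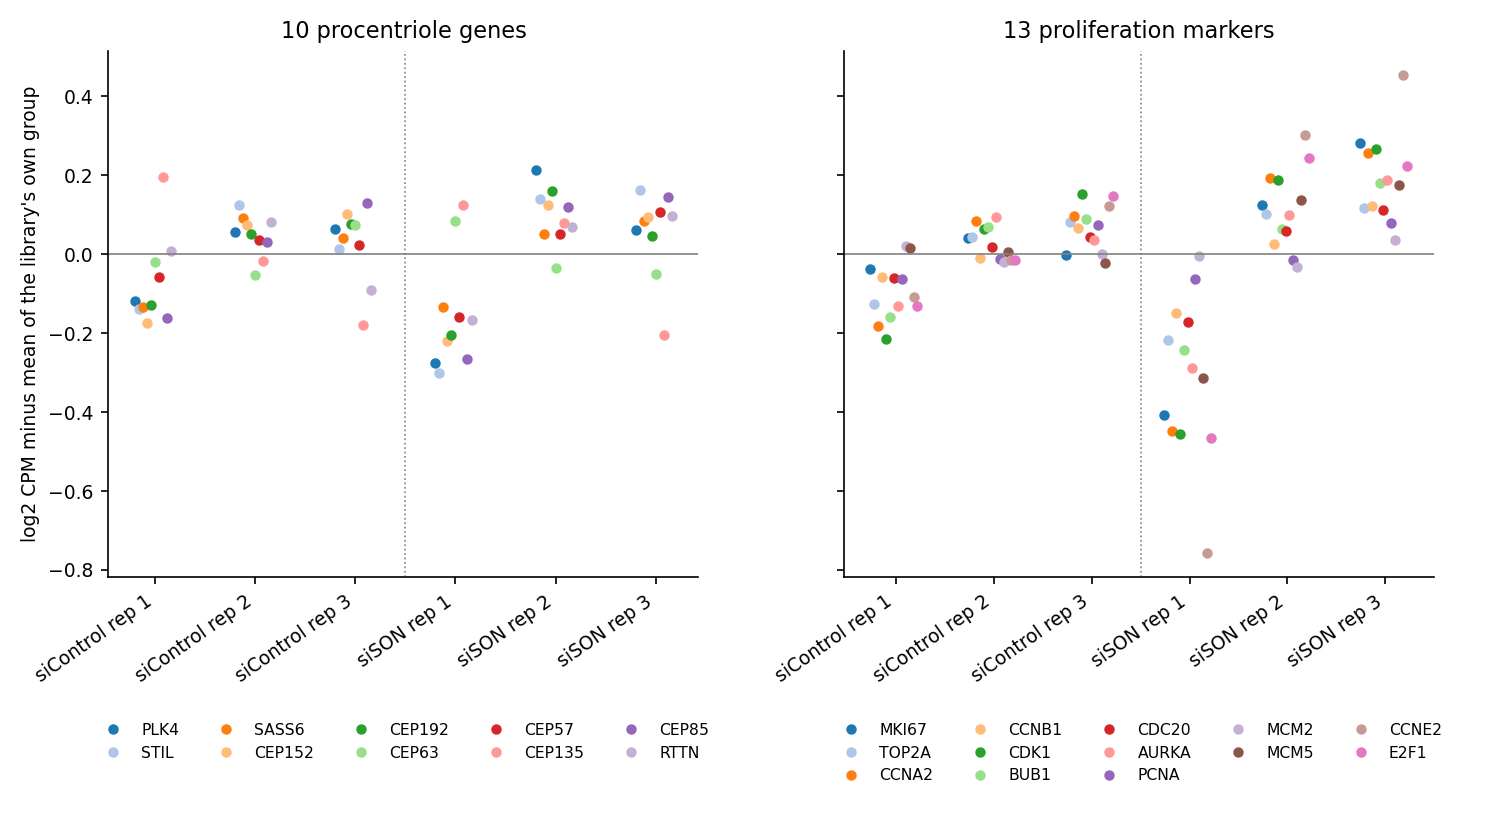
Log2 CPM of each gene minus the mean of the library's own group (vertical axis) for the 6 libraries, with the 10 procentriole genes on the left and the 13 proliferation markers on the right. In siSON replicate 1, 8 of the 10 genes and 12 of the 13 markers take the lowest value of their group.

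Features of the 10 genes that were not used to choose them were set beside those of all genes tested. Their longest coding transcripts had a median of 17.5 exons and 41.4% GC, beside 7 exons and 48.4% GC over all genes tested, and their median intron length had a median of 1.93 kb beside 1.90 kb. By GC content, 5 of them (PLK4, SASS6, CEP152, CEP57 and CEP135) lay in the lowest quintile of the genes tested and 4 (STIL, CEP192, CEP63 and RTTN) in the next. None lay in the quintile with the shortest introns, where the median log2 fold change was -0.61 and 57.6% of genes fell. In the lowest quintile of GC content the median was 0.04 and 31.4% fell, and in the highest it was -0.55 and 54.5% fell. CEP192, at 42.4% GC and a median intron of 1.64 kb, lay in quintiles whose medians were 0.125 and 0.119, against its own -1.14. CEP85, with the largest rise, had the highest GC content of the 10 genes, 51.5%.

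**Figure D5:**
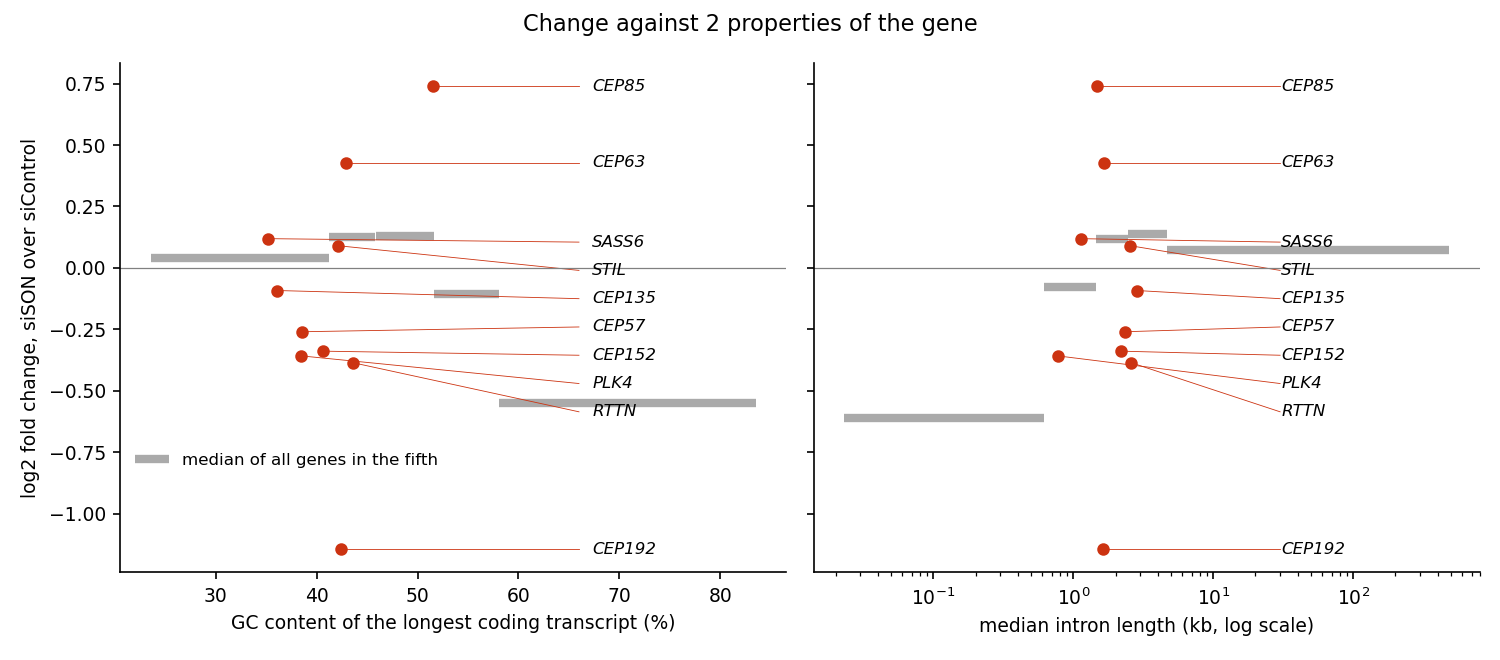
Log2 fold change (vertical axis) of the 10 genes (points) against GC content of the longest coding transcript in percent (left) and median intron length in kilobases on a log axis (right). Grey bars span each quintile of the genes tested at the quintile's median, -0.61 for the shortest introns and -0.55 for the highest GC content.

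Genes whose profile over the 6 libraries was closest to that of PLK4 were ranked by the root mean square difference of mean-centred log2 CPM among 13007 other protein-coding genes. The closest were GNE (0.037), an enzyme of sialic acid synthesis, C12orf60 (0.045), FNBP1L (0.050), UBE2S (0.051), a ubiquitin-conjugating enzyme of mitotic exit, and CHEK1 (0.055), a DNA damage checkpoint kinase. C12orf60 was low, at 1.31 to 2.19 CPM over the 6 libraries, and its own change was not called (edgeR adjusted p 0.104). CHEK1, for example, had 59.0, 71.2 and 71.5 CPM in siControl and 41.4, 56.1 and 55.6 CPM in siSON, with the low values in the libraries numbered 1 as for PLK4. Of the other 9 genes of the set, CEP152 came nearest, with a difference of 0.056 and rank 7. CEP57 and RTTN followed at ranks 160 and 211.

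The abundance of PLK4, STIL and SASS6 proteins is known to be set largely by ubiquitin ligases and by modifying enzymes, whose genes formed a list of 15. Of these 13 changed, 8 higher and 5 lower, beside 71.7% called, 35.2% higher and 36.5% lower, over all genes tested. The SCF ligase that marks PLK4 for degradation is built from CUL1, SKP1 and RBX1 with BTRC or FBXW11 as the substrate receptor. BTRC rose from 31.6 to 84.5 CPM (log2 fold change 1.42, SE 0.07, edgeR adjusted p 1.64e-08), CUL1 rose by 0.70 and SKP1 by 0.61 on the log2 scale (edgeR adjusted p 5.86e-07 and 6.87e-07), with SKP1 at 0.29 under cyclic loess. The F-box protein FBXW5, which directs the degradation of SASS6, fell from 136 to 35.3 CPM (log2 fold change -1.94, SE 0.06, edgeR adjusted p 1.08e-09). The acetyltransferases KAT2A and KAT2B, which modify PLK4, fell by 0.92 and 0.65 on the log2 scale (edgeR adjusted p 6.58e-07 and 2.39e-05). The list's median was 0.18, but it turned to -0.02 with library size alone and to -0.04 under cyclic loess, where 6 were higher and 6 lower.

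Partners at the recruitment site formed a list of 13, of which 11 changed, 5 higher and 6 lower, beside 71.7% called over all genes tested. The median log2 fold change was -0.16, and it moved to -0.355 with library size alone and -0.46 under cyclic loess. PCNT, the large scaffold of the pericentriolar material and a partner of CEP57, fell by 1.90 and the satellite protein CEP131, a substrate of PLK4, by 1.85 on the log2 scale (edgeR adjusted p 3.31e-09 and 1.57e-08). CEP57L1, the paralog of CEP57, fell by 1.00 (adjusted p 0.000255). WDR62, MCPH1 and CDK5RAP2 rose by 0.57, 0.45 and 0.31 (edgeR adjusted p 5.47e-05, 0.000263 and 0.000549). The CDK5RAP2 call was lost with library size alone (0.11, adjusted p 0.120) and under cyclic loess (0.09, adjusted p 0.152), and the list's split was then 3 higher against 8 and 7 lower. With library size alone WDR62 and MCPH1 were still called, at 0.37 and 0.25.

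Genes that act on the procentriole after initiation formed a list of 17, of which 14 changed, 4 higher and 10 lower, beside 71.7% called and 36.5% lower over all genes tested. The median log2 fold change was -0.42. PPP1R35, which acts in centriole elongation, fell on the log2 scale (-2.21), as did TEDC1, a partner of delta and epsilon tubulin (-1.93), and CNTROB, a protein of the daughter centriole (-1.53) (edgeR adjusted p 1.64e-08, 2.03e-07 and 7.49e-08). RBM14, a binding partner of STIL, rose by 1.06, CEP97, a partner of the cap protein CCP110, by 0.77 and TUBD1, delta tubulin, by 1.12 (edgeR adjusted p 5.27e-07, 1.76e-05 and 3.15e-05). RBM14 shares its span with the readthrough gene RBM14-RBM4 on the same strand, and its counts are uncertain for that reason.

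PLK4 has 4 relatives in the polo-like kinase family, and the 3 tested all changed, beside 71.7% of all genes tested. PLK2, a stress-induced kinase, rose by 0.65 and PLK1, the main mitotic kinase of the family, by 0.57, while PLK3 fell by 1.04 on the log2 scale (edgeR adjusted p 1.29e-05, 0.000771 and 7.74e-08). PLK2 was at 0.45 with library size alone and at 0.24 under cyclic loess, PLK1 at 0.38 and 0.33, all still called. PLK5 had 4 counts in all 6 libraries together and was not tested. Of the 33 genes named from the lists, 24 share their span with another annotated gene, 10 on the same strand and 16 on the other. For these genes and the overlapping members, any effect of an overlap on the other strand depends on the strand setting. That setting is not given in the sources used here. It would not separate reads of genes that overlap on the same strand. Spans include introns, and whether exons overlap was not examined.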

How the data were processed

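RNA-seq counts of 6 libraries were analysed. The deposited table held raw read counts, as whole numbers for each gene and library. Per the submitters' processing notes, the tools were cutadapt 1.16, STAR 2.5.2a, featureCounts 1.6.2 and DESeq2 1.28.1, with build hg38. The annotation release, strand setting and treatment of multi-mapping reads are not given in the sources used here. Per the labels' protocols, RNA extraction used a Monarch kit and library preparation the Nugen Universal Plus mRNA-seq kit. All 58735 identifiers matched GENCODE release 29 of GRCh38, from which positions, exons, GC content and lengths were taken; promoter windows came from RefSeq, the one nearest to the GENCODE start where a gene had several.

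Columns were matched to libraries by title. The analysis ran in edgeR 4.0.16 (R 4.3.3): filterByExpr removed low genes (minimum count 10), TMM set the scaling, and the quasi-likelihood test used its robust option and no covariate. Benjamini-Hochberg adjustment covered all 16591 genes tested, with 0.05 as the threshold. Standard errors are the absolute log2 fold change over the square root of F, and 95% intervals use the fit's degrees of freedom. Alternatives used DESeq2 1.42.0, limma 3.58.1 (voom and cyclic loess), other scalings and filters, the replicate number as a block, and the omission of libraries. The fit was tested on simulated data. Log2 CPM values used a prior count of 2. The floor of 3 counts was 0.0401 to 0.0590 CPM, which covers counting error alone because PCR copies were not marked by molecular identifiers. Replicate pairs differed by more than sampling noise (chi-square per degree of freedom 6.68 to 23.6). The genes named are SON, the 10 members, for each list the 3 genes called higher and the 3 called lower with the lowest adjusted p, and the 5 genes closest to PLK4; some genes are not reported here. Members and lists were chosen with earlier results of these data known.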

Additional observations from a re-analysis of the deposited data

How the results depend on the processing

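The count of changed genes over all genes tested (11888) ranged from 10226 to 12604 over 15 alternatives, and from 11153 to 11783 when 1 library was left out. The count among the 10 members (7) stayed at 6 or 7, and the count of those lower (5) at 4 or 5. SON ranged from -2.42 to -2.10 on the log2 scale. All 15 alternatives kept the direction and the call of PLK4, CEP192, CEP63, CEP57, CEP85 and RTTN. CEP152 kept its direction, between -0.54 and -0.22, and lost its call in 4. Signs turned for genes that were not called: STIL with library size alone (-0.11), under cyclic loess (-0.022) and in the fits without 1 library (-0.0012 to 0.24), SASS6 with library size alone (-0.078), and CEP135 under cyclic loess (0.12) and in the fits without 1 library (-0.19 to 0.014). The cause was not tested. With the replicate number as a block 12313 genes were called, 7 of the members among them, and no member's call changed (PLK4 -0.37, edgeR adjusted p 8.91e-05); deviations of same-numbered libraries correlated at 0.194, 0.0461 and 0.118 and those of the other pairs at -0.138 to 0.0286, so every library correlated best with its own number, as a hint from the data rather than the design, and the pairing is not given by the labels. The counts of the 6 pathway lists stayed within 1.5 times of their values in all alternatives. The within-library ratios kept their sign in 7 alternatives, with a prior count of 0.5 or with 1 library left out. With the longest transcript as the length, 9 of 10 levels per kilobase rose by more than 1 SD, since that transcript is shorter than the union of exons.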

Other observations

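Extra centrosomes are known to activate the PIDDosome, and loss of centrosomes a pathway of USP28 and TP53BP1. Of 9 genes of these routes 7 changed after SON knockdown, 3 higher and 4 lower, beside 71.7% of all genes tested. CDKN1A, the p21 inhibitor of the cell cycle, fell from 2095 to 919 CPM (log2 fold change -1.19, SE 0.05, edgeR adjusted p 1.01e-08). ANKRD26, which anchors the PIDDosome at the distal appendages, fell by 0.96 on the log2 scale (edgeR adjusted p 5.45e-06). TP53BP1 rose by 0.47 (edgeR adjusted p 9.03e-06), and by 0.27 with library size alone and 0.18 under cyclic loess. USP28 was at 0.25 on the log2 scale (edgeR adjusted p 0.00582) and was not called with library size alone (0.056). CASP2 was at 0.20 (edgeR adjusted p 0.0482). Its call was lost with library size alone (-0.00065), under cyclic loess (0.028), with limma-voom (adjusted p 0.0555), with a mean count of at least 50 (0.14), and when any library but siSON replicate 1 was left out (0.13 to 0.20). Over the 9 genes the median was 0.05 on the log2 scale, and it turned to -0.15 with library size alone and -0.28 under cyclic loess.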
